A study of Homo sapiens with 4 samples.

Results

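The genes described here encode the parts of the desmosome together with PERP, and their RNA was compared between COLO-320DM cells and the tankyrase inhibitor-resistant subline 320-IWR. The 10 members (DSC2, DSC3, DSG2, DSG3, DSP, JUP, PERP, PKP2, PKP3 and PKP4) were chosen by their symbols, with the same contrast between the lines already known. They are measured by 27 probe sets annotated to exactly 1 of these symbols, out of 19775 genes and 54613 probe sets. Because the contrast chose the members, their differences are a description, and the p-values printed beside them support nothing about the choice.

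COLO-320DM is a human colon cancer line with a truncated APC, in which Wnt/β-catenin signaling is active without ligand. 320-IWR was obtained from it by long continuous culture with IWR-1, a small molecule that blocks the poly(ADP-ribose) polymerase tankyrase, so both lines share that origin. 320-IWR is 1 selected culture, without an independently derived second subline. Whether IWR-1 was present in its medium at harvest is not given in the sources used here. Total RNA of near-confluent dishes was hybridised to 4 Affymetrix U133 Plus 2.0 arrays, 2 for each line, and each array is called a replicate. No source used here says whether a line's 2 arrays came from separate cultures, and p-values therefore cover array-to-array spread that may be technical.

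The desmosome is a button-like junction that ties the intermediate filaments of neighbouring epithelial cells to each other. Its adhesive parts are 2 kinds of cadherin, the desmocollins (DSC) and the desmogleins (DSG), which reach across the gap between the cells. Plakoglobin (JUP) and the plakophilins (PKP), proteins of the armadillo family to which β-catenin belongs, bind the tails of these cadherins, and desmoplakin (DSP) links that plaque to the keratin filaments. PERP, a membrane protein with 4 membrane-spanning segments and a transcriptional target of p53 and p63, is a desmosome component of stratified epithelia. In simple epithelia such as that of the colon, DSC2 and DSG2 are the usual desmosomal cadherins, while the other desmocollins and desmogleins belong to stratified epithelia.

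Of the 10 genes, DSC2 was higher in 320-IWR cells and PERP was lower, each by 8.70-fold or more on the brightest probe set. The call required a limma p under 0.05 after Benjamini-Hochberg adjustment over all 54613 probe sets, together with at least a 2-fold difference. On that rule 2 of the 27 member probe sets were called higher (both of DSC2), 2 lower (both of PERP) and 23 were not called. Of all probe sets, 0.112% were called higher and 0.258% lower. PKP4 was lower in 320-IWR on all 5 of its probe sets, none of them called, and the brightest probe sets of the other 7 genes differed by at most 0.37 on the log2 scale. The median log2 fold change of the 10 genes, each by its brightest probe set, was 0.02, and that of all 19775 genes was also 0.02.

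The promoters of DSC2, PERP and PKP4 are shown because these genes had the largest differences of the 10. Each is the stretch of 250 bases before the gene's outermost RefSeq start site in GRCh38.p14, written in the direction of transcription, and the capitals mark a searched motif. The DSC2 stretch is chr18:31102422-31102671 on the minus strand, with the E-box of the SNAI and ZEB repressors in capitals. The PERP stretch is chr6:138107420-138107669 on the minus strand, with an AP-1 motif in capitals. The PKP4 stretch is chr2:158456702-158456951 on the plus strand, with CCAAT boxes in capitals.
DSC2: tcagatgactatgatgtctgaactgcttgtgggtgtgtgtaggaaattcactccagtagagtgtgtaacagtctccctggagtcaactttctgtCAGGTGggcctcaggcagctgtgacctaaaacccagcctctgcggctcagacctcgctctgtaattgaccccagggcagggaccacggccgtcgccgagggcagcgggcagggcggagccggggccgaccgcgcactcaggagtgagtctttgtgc
PERP: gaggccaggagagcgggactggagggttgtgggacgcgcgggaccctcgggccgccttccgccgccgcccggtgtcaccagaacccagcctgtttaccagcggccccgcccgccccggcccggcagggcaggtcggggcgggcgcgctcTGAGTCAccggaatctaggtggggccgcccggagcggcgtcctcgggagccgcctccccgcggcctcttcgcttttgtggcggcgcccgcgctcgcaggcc
PKP4: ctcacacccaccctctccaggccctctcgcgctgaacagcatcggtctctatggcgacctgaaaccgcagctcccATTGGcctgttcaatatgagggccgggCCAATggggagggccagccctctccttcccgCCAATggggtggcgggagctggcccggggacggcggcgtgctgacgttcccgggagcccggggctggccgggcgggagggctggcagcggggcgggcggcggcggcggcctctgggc

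The G and C content was 59.6% before DSC2, 77.2% before PERP and 73.2% before PKP4. Short motifs, 5 in all, were searched on both strands, and their shares were taken over the same windows of all 35116 promoters in the RefSeq table. The E-box CAGGTG begins 156 bases before the DSC2 start and is found in 17.5% of the promoters. The AP-1 motif TGAGTCA begins 101 bases before the PERP start and is found in 4.2%. The PKP4 window holds the CCAAT motif 3 times, at 175, 148 and 117 bases before the start, and 32% of promoters hold at least 1. The TCF/LEF core CTTTGA, the letters read by the partners of β-catenin, is found in 11.2% of promoters and in none of the 11 windows of the 8 members in the table. The CDX core TTTAT is found in 32.7% of promoters, and among the members 1 time each before JUP, DSC3 and DSG3. The E-box is also found before DSP, DSG2 and the inner start of JUP, and the CCAAT motif before JUP and DSC3. A match is a description of letters and not a binding site. Second start sites of DSC2 and PKP4 had none of the 5 motifs in their windows, and PKP2 and PKP3 were not matched.

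**Figure D1:**
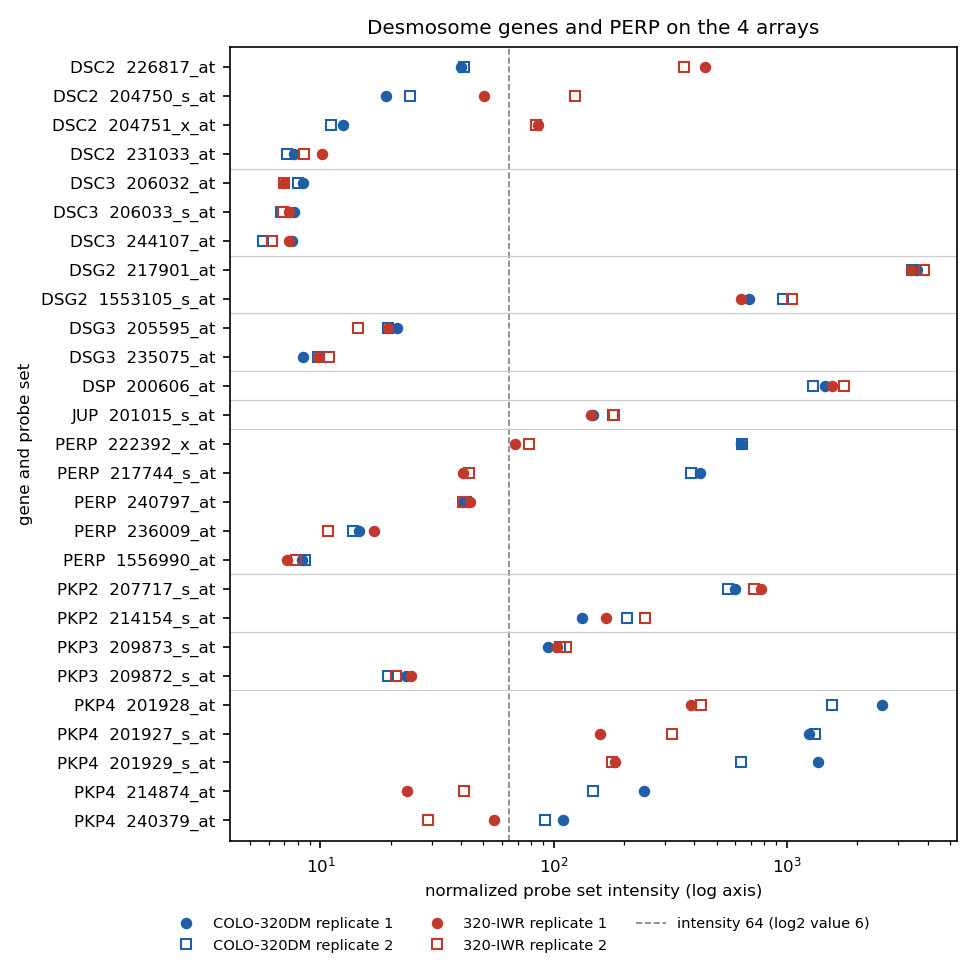
Normalized intensity (log axis) of the 27 member probe sets on the 4 arrays, blue for COLO-320DM and red for 320-IWR, filled circles for replicate 1 and open squares for replicate 2, with a dashed line at 64. Red lies to the right of blue for DSC2 and to the left for the 2 brightest PERP probe sets and for PKP4, while the colours mix or nearly touch for most others, and position along the axis does not rank different genes.

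Among the desmosomal cadherins, DSC2, which builds the desmosomes of simple epithelia, had the largest difference. Its brightest probe set, 226817_at, read 39.9 and 41.2 in COLO-320DM and 446 and 363 in 320-IWR. Both 320-IWR arrays lay far above both COLO-320DM arrays. The means were 40.6 ± 0.913 and 404 ± 58.6 (SD, n = 2 each), a 9.91-fold rise by the means of log2 values, as are all folds here (log2 fold change 3.31, SE 0.15, limma adjusted p = 0.00853).

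The other DSC2 probe sets ran the same way with unequal size. The endings of 204751_x_at and 204750_s_at mark probes that can also match other transcripts. On 204751_x_at the arrays read 12.5 and 11.1 in COLO-320DM and 85.4 and 83.7 in 320-IWR, a 7.17-fold rise (log2 2.84, limma adjusted p = 0.00853). On 204750_s_at they read 19.0 and 24.3 against 50.0 and 123.6. The groups did not overlap there either, but the 320-IWR arrays stood apart from each other, and the log2 difference of 1.87 was not called (95% interval 0.69 to 3.05, limma adjusted p = 0.264). The dimmest, 231033_at, stayed between 7.19 and 10.1 on all arrays, with a log2 difference of 0.31. All COLO-320DM values of DSC2 lay under 64, the intensity used here as the limit for a dim probe set (mean log2 value of 6), so a fold taken from them depends on a low base. With 16 added to every intensity before the logarithm, the log2 difference was 2.89 on 226817_at and 1.85 on 204751_x_at, and both were still called.

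DSG2, the partner of DSC2 in simple epithelia, was bright and alike in both lines. Its brightest probe set read 3609 and 3419 in COLO-320DM and 3404 and 3860 in 320-IWR, so the lines overlapped. The log2 difference was 0.05, with a 95% interval from -0.30 to 0.39, which does not reach a 2-fold change in either direction. The second DSG2 probe set read 685 and 961 against 636 and 1049, a log2 difference of 0.01 with a wider interval from -0.78 to 0.80.

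DSC3 and DSG3, cadherins of stratified epithelia, were dim on every probe set. The 3 DSC3 probe sets read between 5.68 and 8.40, and the 2 of DSG3 between 8.40 and 21.3. Their log2 differences ran from -0.28 to 0.19. At such intensities a difference may not be detectable, so these values do not show equal expression.

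The plaque proteins next to the cadherins gave small differences. Desmoplakin, which carries the link to keratin, read 1452 and 1289 in COLO-320DM and 1559 and 1757 in 320-IWR. Both 320-IWR arrays were higher, by 0.27 on the log2 scale, which was not called (95% interval -0.09 to 0.64, limma adjusted p = 0.674). Plakoglobin, the catenin shared by desmosomes and adherens junctions, read 147 and 180 against 145 and 181. The lines were closer to each other than the replicates were, with a log2 difference of -0.01 (95% interval -0.48 to 0.47).

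The plakophilins differed among themselves. PKP2, the widely expressed plakophilin of simple epithelia and heart, read 597 and 559 in COLO-320DM and 771 and 720 in 320-IWR on its brightest probe set. Both 320-IWR arrays were higher, by 0.37 on the log2 scale (95% interval 0.05 to 0.69, limma adjusted p = 0.431, not called), and the second probe set gave 0.30 with overlapping arrays. PKP3, present in most epithelial desmosomes, read 94.1 and 106 against 104 and 113, a log2 difference of 0.11 (95% interval -0.24 to 0.46). Its second probe set, 209872_s_at, was dim at 23.3 and 19.5 against 24.4 and 21.0, with overlapping arrays and a log2 difference of 0.09.

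PKP4, an armadillo protein related to p120-catenin that is found at cell junctions and at the midbody of dividing cells, had lower values in 320-IWR on each probe set. The brightest, 201928_at, read 2554 and 1561 in COLO-320DM and 388 and 429 in 320-IWR. The lines did not overlap, and the COLO-320DM arrays differed from each other more than the 320-IWR arrays did. The log2 difference was -2.29 (95% interval -2.97 to -1.61), a 4.90-fold lower level that missed the threshold (limma adjusted p = 0.0714).

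The other 4 PKP4 probe sets had the same direction without overlap. On 201927_s_at the values were 1246 and 1321 against 158 and 321, and on 201929_s_at 1356 and 634 against 183 and 178. The spread was thus in COLO-320DM on one probe set and in 320-IWR on the other. On 214874_at the values were 243 and 148 against 23.5 and 41.3, and on 240379_at 110 and 91.9 against 55.4 and 29.0. The log2 differences were -2.51, -2.36, -2.61 and -1.33, with limma adjusted p of 0.103, 0.126, 0.105 and 0.282. Probe sets of 1 gene read the same RNA on the same arrays and are not replicates of the comparison.

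**Figure D2:**
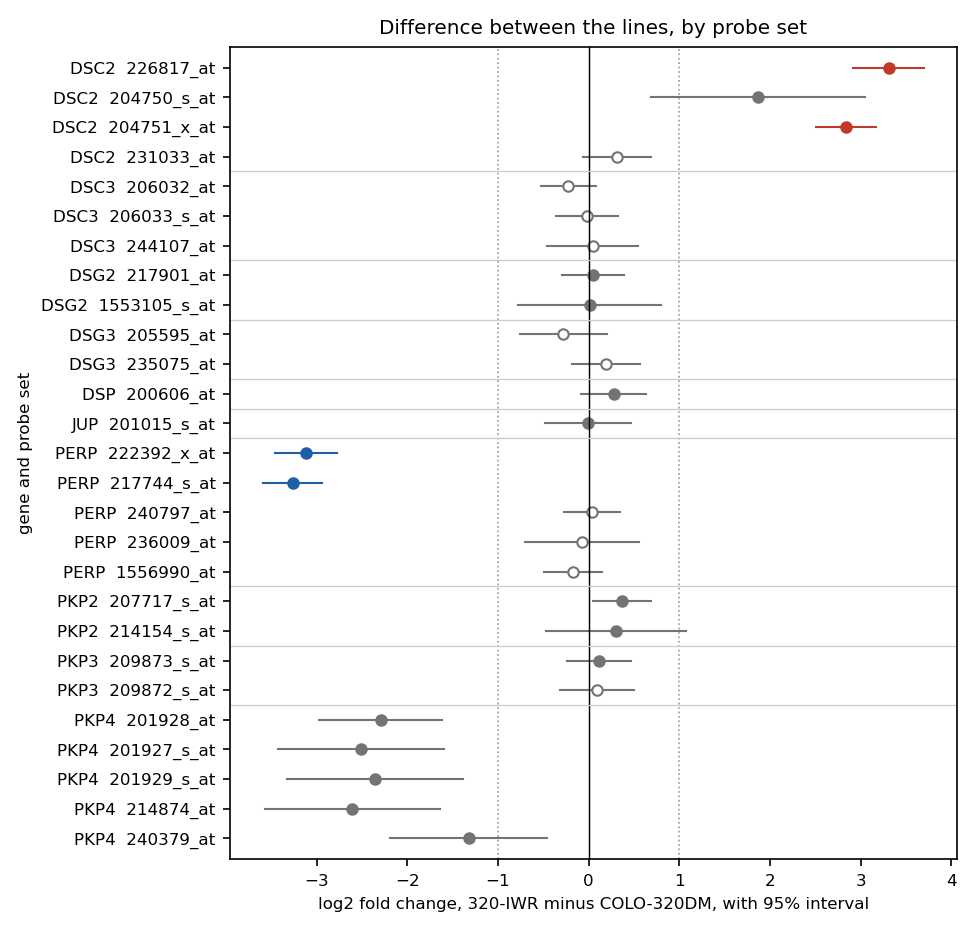
Log2 fold change of each member probe set (320-IWR minus COLO-320DM) with its 95% limma interval, red for a called rise, blue for a called fall and gray for no call, with open circles for probe sets dim in both lines and dotted lines at a 2-fold change. The 4 called probe sets lie at 3.31 and 2.84 for DSC2 and at -3.12 and -3.26 for PERP, and the 5 PKP4 probe sets lie between -2.61 and -1.33.

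PERP had the largest fall. Its brightest probe set, 222392_x_at, read 632 and 639 in COLO-320DM and 68.2 and 78.2 in 320-IWR. The 320-IWR arrays lay close to each other and far under the COLO-320DM arrays. The means were 635 ± 5.14 and 73.2 ± 7.09 (SD, n = 2 each), an 8.70-fold fall (log2 fold change -3.12, SE 0.13, limma adjusted p = 0.00807).

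A second PERP probe set, 217744_s_at, read 424 and 386 against 40.9 and 43.4, a 9.61-fold fall (log2 -3.26, SE 0.13, limma adjusted p = 0.00807). The ending _x_at or _s_at on both names marks probes that can also match other transcripts. The 320-IWR values of both probe sets lay near or under 64, so these folds depend on a low level in 320-IWR. The log2 differences with 16 added before the logarithm were -2.87 on 222392_x_at and -2.86 on 217744_s_at, and both were still called. The other 3 PERP probe sets did not show the fall. The first of them, 240797_at, read 40.8 and 42.1 in COLO-320DM and 43.9 and 41.0 in 320-IWR, a log2 difference of 0.03. The remaining pair read between 7.16 and 17.0, with log2 differences of -0.07 and -0.17. All 3 were dim in both lines, and where in the transcript their probes lie was not examined.

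Across all 27 member probe sets, the 320-IWR arrays lay above both COLO-320DM arrays in 6 and below both in 10, and overlapped in 11. Of all 54613 probe sets, 19.5% lay above and 16.1% below in this way, so with 2 arrays a line such order is common. At least a 2-fold difference was found in 3 member probe sets upwards and 7 downwards, against 0.586% and 1.36% of all probe sets. Those upwards were all of DSC2 and those downwards all of PERP and PKP4. An unadjusted p under 0.05 was found in 11 of the 27 (limma) and in 9.71% of all. The 11 were these same probe sets and 1 of PKP2. Probe sets of the same gene are not separate units, and the members were chosen with this contrast known. Of the 27, 17 reached a mean log2 value of 6 in at least 1 line and 10 did not. In bulk RNA of this kind, a change in every cell and a change in the share of cells that express a gene cannot be told apart.

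DSC2, DSC3, DSG2 and DSG3 lie together on chromosome 18 with the other desmosomal cadherin genes, so the differences can be set beside those of their neighbours. DSC3, next to DSC2 on one side, had a log2 difference of -0.23 and DSC1, next to it on the other, had -1.14. DSC1, a desmocollin of stratified epithelia, read 58.3 and 41.9 in COLO-320DM and 21.7 and 23.1 in 320-IWR (limma adjusted p = 0.147), opposite in direction to DSC2 and not called. The desmogleins further along, DSG1, DSG4, DSG3 and DSG2, had -0.42, -0.44, -0.28 and 0.05. DSC3, DSC1, DSG1 and DSG3 were dim in both lines, so their differences come from low intensities. DSC2, a member chosen with this contrast known, was the only called gene among the 16 measured genes plotted across this cluster. Calls were made for 0.592% of all genes, so a neighbour without a call is the usual outcome.

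The closest neighbours of PERP on chromosome 6, TNFAIP3 and ARFGEF3, had log2 differences of -0.31 and 0.25. NHSL1, on the same side as ARFGEF3 and chosen after its values were seen, read 469 and 459 against 262 and 251 (log2 -0.86, limma adjusted p = 0.100). Beside PKP4 on chromosome 2, CCDC148, also chosen after its values were seen, read 103 and 65.6 against 27.9 and 18.9 (log2 -1.84, limma adjusted p = 0.135). TANC1, on the other side of PKP4, had 0.33. Of the 73 distinct non-member neighbours of the 10 genes (up to 5 measured genes on each side), limma called 0, and their median log2 difference was -0.01. Of all 19775 genes, 0.592% were called in either direction.

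**Figure D3:**
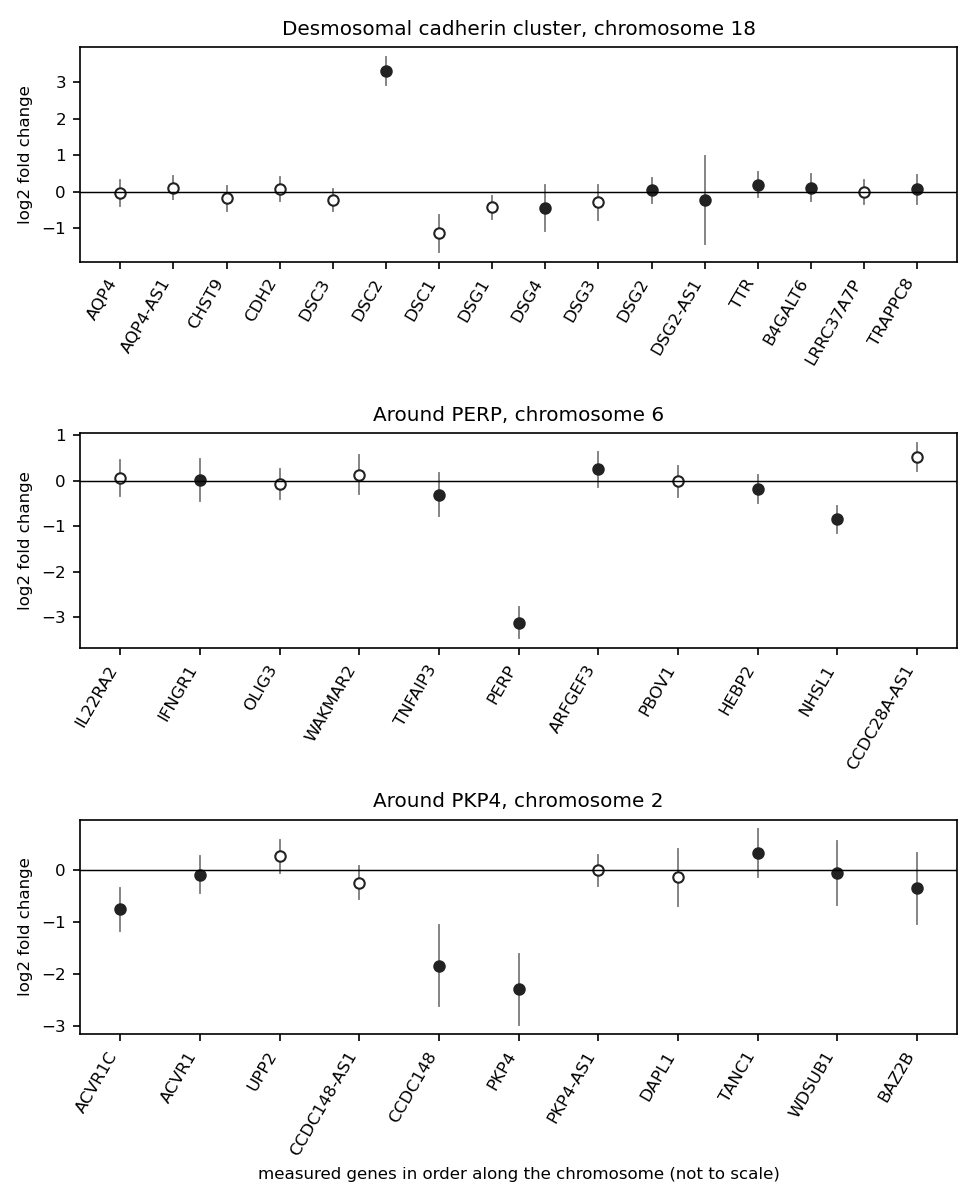
Log2 fold change (320-IWR minus COLO-320DM, brightest probe set, bars for 95% limma intervals) of measured genes in their order along chromosomes 18, 6 and 2, with open circles for genes dim in both lines and distances not to scale. DSC2 at 3.31 and PERP at -3.12 stand apart from the genes beside them, while CCDC148 at -1.84 lies next to PKP4 at -2.29.

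The remaining desmosome and plakin genes were described from a list of 13, all of them measured, of which limma called 0. An unadjusted p under 0.05 was found for 3 of them (DSC1, DSG1 and PPL), all with lower values in 320-IWR. All 3 were dim in both lines, so their differences come from low intensities. Periplakin (PPL), a plakin of the cell cortex, read 43.2 and 39.9 against 31.7 and 30.2, a log2 difference of -0.43. PKP1, the plakophilin of stratified epithelia, had 0.01. The list's median was -0.10.

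Desmosomes anchor intermediate filaments, and 16 of the 18 genes on that list were measured. Limma called 1 higher and 2 lower, and the list's median was 0.03. Over all genes by their brightest probe set, 0.192% were called higher and 0.399% lower. KRT8 and KRT18, which pair to form the filaments of simple epithelia, both fell. Each of these genes was measured by 1 probe set with a name ending in _x_at, so its probes can also match other transcripts. Whether other transcripts add to the values of KRT8 and KRT18 was not tested. KRT8 read 500 and 580 in COLO-320DM and 113 and 112 in 320-IWR (log2 -2.26, SE 0.13, limma adjusted p = 0.0155). KRT18 read 1323 and 1128 against 390 and 380 (log2 -1.67, SE 0.14, limma adjusted p = 0.0322). The 320-IWR arrays of both keratins lay close together, below both COLO-320DM arrays.

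KRT20, a keratin of differentiated intestinal cells, rose. It read 49.6 and 54.6 in COLO-320DM and 199 and 160 in 320-IWR (log2 1.78, SE 0.16, limma adjusted p = 0.0412). The arrays of the lines did not overlap. Each of these 3 keratin calls was lost when either array of either line was left out, and KRT20 also lost its call with a trended prior (adjusted p = 0.0531). With 16 added before the logarithm, KRT18 and KRT20 lost theirs (adjusted p = 0.0646 and 0.095). Vimentin (VIM), the filament protein of mesenchymal cells, was among the bright genes at 7778 and 10104 against 5880 and 8737, with overlapping arrays and a log2 difference of -0.31.

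The adherens junction is the neighbouring junction type, built from classical cadherins and catenins. Limma called 0 of the 7 measured genes of that list, with a median of -0.03 and 1 at an unadjusted p under 0.05, CTNNA1 (log2 -0.42), chosen after its values were seen. β-catenin (CTNNB1), the effector of Wnt signaling and a partner of cadherins, read 2945 and 2623 against 2546 and 2308, a log2 difference of -0.20 (95% interval -0.55 to 0.15). ARVCF, a p120-catenin relative like PKP4, had -0.03. E-cadherin (CDH1) read between 16.2 and 18.8 and N-cadherin (CDH2) between 25.2 and 28.7, both dim in both lines.

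PERP belongs to a family of small tetraspan membrane proteins, of which 5 of 6 listed relatives were measured, with a median of -0.23. Limma called 0, although 2 had an unadjusted p under 0.05. TMEM47, a cell junction protein of the same family, read 2235 and 2585 in COLO-320DM and 820 and 1034 in 320-IWR. Its arrays did not overlap, and its log2 difference of -1.38 had a 95% interval from -1.83 to -0.94 (limma adjusted p = 0.0821, not called). The second gene, EMP3, chosen after its values were seen, had -0.96.

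PERP is also known as a p53 target, and 23 of 28 listed members and targets of the p53 family were measured. Limma called 0 of them, 3 had an unadjusted p under 0.05 and the list's median was 0.04. CDKN1A, the cell cycle inhibitor most often used to read p53 activity, read 73.2 and 59.2 against 65.2 and 68.8, a log2 difference of 0.02 (95% interval -0.37 to 0.42). The 3 genes, chosen after their values were seen, did not share a direction. PMAIP1, which encodes the pro-apoptotic protein NOXA, had -2.45, while TP53I3 had 1.29 and the DNA repair gene DDB2 had 0.86 (limma adjusted p = 0.0848, 0.116 and 0.116).

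Transcription factors that promote or repress epithelial genes were taken from a list of 22, of which 18 were measured. The list's median was 0.05 and limma called 0, with 1 (ZEB2) at an unadjusted p under 0.05. CDX2, the intestinal homeobox factor, was bright in both lines at 3403 and 3263 against 2723 and 2790 (log2 -0.27, 95% interval -0.58 to 0.03). GRHL2, an activator of junction genes, was dim at 11.3 to 14.7. ZEB1, a repressor of epithelial genes, read 391 and 311 against 471 and 383 (log2 0.29). ZEB2, chosen after its values were seen, had the low unadjusted p, with a log2 difference of -0.76 (limma adjusted p = 0.154). Of 12 partners and regulators of desmosomes, such as PRKCA and ADAM10, limma called 0, with a median of -0.01 and 1 at an unadjusted p under 0.05, the kinase gene SRC (log2 -0.36), chosen after its values were seen.

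**Figure D4:**
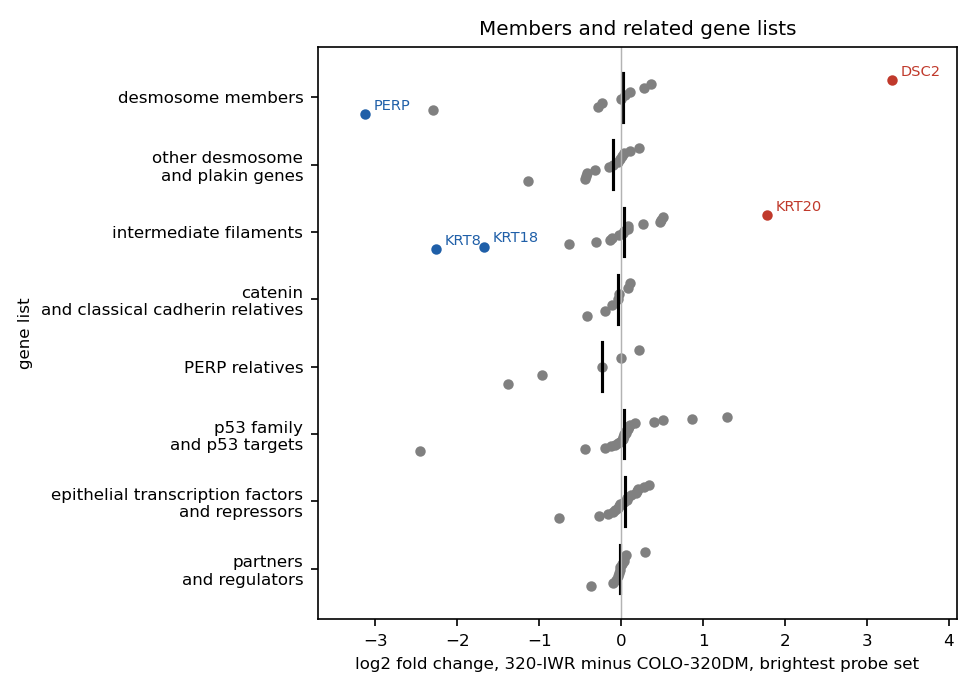
Log2 fold change (320-IWR minus COLO-320DM) of each measured gene by its brightest probe set, grouped by list, red for called higher, blue for called lower, gray for not called, and a black bar for the list's median. Called genes are DSC2, PERP, KRT8, KRT18 and KRT20, and every list's median lies between -0.23 and 0.05.

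The labelled cell type was checked with 10 markers of colon epithelium. CDX2 and KRT18 were bright on all 4 arrays. EPCAM at 13.5 to 35.1, CDH1 at 16.2 to 18.8 and KRT19 at 11.1 to 11.9 were dim in both lines, so several general epithelial markers were near the lower end of the scale. The summed intensity of the 10 was 5335 to 5501 in COLO-320DM and 3615 to 3718 in 320-IWR, and limma called 1 higher and 2 lower, the keratins above. Most of that sum came from CDX2, KRT18 and KRT8, so it does not describe the 10 as a group. The median log2 difference of the 10 was -0.12. Limma called 0 of 5 leukocyte, 7 fibroblast and 5 endothelial markers, and at an unadjusted p under 0.05 there were also 0. Their summed intensities overlapped between the lines for leukocytes (265 to 304 and 299 to 348), fibroblasts (727 to 1629 and 700 to 1595) and endothelium (149 to 164 and 150 to 172). The wide fibroblast ranges came mostly from COL3A1, at 292 and 1193 in COLO-320DM and 278 and 1187 in 320-IWR. A comparison of the lines does not show that these markers are absent. Of them, 1 for leukocytes, 4 for fibroblasts and 1 for endothelium were not dim in at least 1 line. The part of the epithelial markers in the differences of DSC2 and PERP was not tested.

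The 4 arrays had medians from 41.0 to 41.8, and replicates correlated across probe sets with r = 0.990 in COLO-320DM and 0.991 in 320-IWR. The number of arrays limits the precision. Without either array of 320-IWR, limma called 0 probe sets in the whole table (3502 and 3756 at an unadjusted p under 0.05), and the adjusted p of the called DSC2 and PERP probe sets rose to between 0.129 and 0.150. Their log2 differences then lay between 2.83 and 3.46 for DSC2 and between -3.31 and -3.02 for PERP. Without either array of COLO-320DM the 4 calls held, with adjusted p between 0.0417 and 0.0499.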

How the data were processed

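RNA from COLO-320DM and from 320-IWR (2 arrays each) was hybridised to Affymetrix U133 Plus 2.0 arrays. The authors deposited normalized probe set intensities on a linear scale, made with RMA according to the submitters' processing notes (no version given), and the study's methods name GeneSpring GX. Scanner files and detection calls were not used here. Intensities were floored at 1 and log2 was taken. The table has 54675 probe sets. Without its 62 control probe sets, 54613 were fitted in R 4.3.3 with limma 3.58.1 (lmFit and eBayes, cell line as the only term, 2.78 prior degrees of freedom). Two-sided p-values were Benjamini-Hochberg adjusted over all probe sets, and intervals are 95%. Genes were named from probe sets with 1 symbol (41091, while 1801 had several and 11721 none) in the supplied annotation, and each gene entered the lists through its brightest probe set (highest mean log2 value over the arrays). Neighbours followed the gene order of GRCh38.p14.

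The members and all 12 gene lists were chosen with earlier results of these data known. Every member probe set was described, singly or by its range, and list or neighbour genes were named where called, with a fixed set of related genes. Genes outside this rule are marked in the text, apart from a few. Those few are the neighbours TNFAIP3, ARFGEF3 and TANC1, the examples PRKCA and ADAM10, and the cell type markers EPCAM, KRT19 and COL3A1. The fit was also run on simulated data with independent noise on each array. That run does not cover variation shared by arrays with the same replicate number. Alternatives were a replicate block, leaving out each array, equal array medians, cyclic loess, a filter on intensity (64 or more as the mean of a line, on the log2 scale), 16 added before log2, a trended robust prior, averaging a gene's probe sets, and dropping probe sets ending in _x_at or _s_at.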

Additional observations from a re-analysis of the deposited data

How the results depend on the processing

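The calls of both DSC2 and both PERP probe sets held with the replicate block, cyclic loess, equal array medians, the filter on dim probe sets, 16 added before log2 and a trended robust prior, and no named value that was called changed its sign. Without 1 array in turn, the member probe sets called ranged from 0 to 2 upwards and from 0 to 3 downwards, and the median log2 difference of the desmosome members ranged from -0.063 to 0.15. When probe sets ending in _x_at or _s_at were left out, 1 member probe set was called higher and 0 lower. Both PERP calls and the DSC2 call on 204751_x_at rest on such probe sets. Over all probe sets, 61 were called higher and 141 lower. These counts were 182 and 394 with the replicate block, 34 and 77 with 16 added, and 0 to 19 and 0 to 44 with 1 array left out. No source used here says what arrays with the same replicate number have in common. The replicate 1 minus 2 differences of the lines correlated with r = 0.661 across all probe sets and 0.324 across the member probe sets. Same-numbered arrays thus shared variation, which the main fit, with cell line as its only term, does not take out. Where it comes from was not tested. With the block, 1 PERP relative (TMEM47) and 1 p53 target (PMAIP1) were called lower where 0 had been. Of the intermediate filament genes, 0 were called higher with 1 array left out, with 16 added and with the trended prior, and the genes called lower numbered 0 with 1 array left out and 1 with 16 added. PKP4 passed the threshold in 1 setting on 1 probe set, 201929_s_at without COLO-320DM replicate 2 (log2 -2.91, adjusted p = 0.0499). Low intensities limit DSC3, DSG3 and the 3 dim PERP probe sets, for which a difference may not be detectable.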
